A study of Rattus norvegicus with 22 samples.

Results

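Removal of the testes was compared with intact testes in the ventral cervical spinal cord of adult male rats, across all genes of the deposited count table. The members are the 5 libraries of castrated (GDX) males and the 5 libraries of gonadally intact males, taken by the names of their columns, 10 of the 22 samples of the series. The other 12 are from ovariectomised (OVX) and intact females and enter only where the male response is set against the female one. All males and females were Sprague-Dawley rats of 3 to 4 months. GDX males had lost both testes 2 weeks before the tissue was taken, and intact males had not been gonadectomised. OVX females had lost both ovaries 2 weeks before, and intact females had not been gonadectomised. Gonadectomy was done under isoflurane after buprenorphine, and the paper describes no sham operation for the intact rats. Effects of the surgery and its drugs therefore cannot be told apart from those of losing the gonads. The tissue ran from the third to the sixth cervical segment, taken after perfusion with cold saline and with its dorsal part discarded. Each library came from 1 rat, and the males are named by their rat numbers, which are 1, 2, 4, 5 and 6 in the GDX group and 1, 2, 3, 5 and 6 in the intact group. Values for single rats are listed in that order throughout.

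Between 14632278 and 16955037 reads were counted per GDX library (median 15645521) and between 13008232 and 15558910 per intact library (median 14196615). Levels are given as CPM, the count of a gene relative to its library's total, with the totals scaled by edgeR's TMM factors. They compare rats and not genes, since they are not corrected for gene length. A value after ± is an SD over 5 rats for CPM and a standard error for a log2 fold change, which is always GDX minus intact. The libraries fall into a shorter and a longer class of average input fragment size. All 5 GDX libraries and those of intact males 2 and 5 are in the shorter class, while intact males 1, 3 and 6 are in the longer class, so that class and castration are partly confounded. Many counts that move by over 1.5 times with the class as a term in the model are therefore also given with it, but not all.

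The spinal identity of the tissue was read from marker genes. Chat, the enzyme that makes acetylcholine, stood at 35.7 ± 4.3 CPM in GDX males and 43.1 ± 6.26 CPM in intact males. Slc5a7, the choline transporter of cholinergic terminals, stood at 123 ± 17.2 and 119 ± 26 CPM. Both groups thus held motor neuron transcripts. Among 4 dorsal horn markers, Tac1 stood at 2.36 CPM in GDX males and 2.16 CPM in intact males, and Tacr1 at 1.39 and 2.19 CPM. Pdyn and Grp had too few counts to be tested. The longer list of dorsal horn genes summed to 383 ± 20.3 CPM in GDX males and 410 ± 11.5 CPM in intact males. Calb2 made up the largest part of it, at 127 and 161 CPM. Among 3 sensory ganglion markers, Scn10a was near 0, at 0.226 CPM in GDX males and 0.197 CPM in intact males. Trpv1 stood at 2.27 CPM in GDX males and 2.33 CPM in intact males, and P2rx3 at 1.31 and 1.88 CPM.

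Testosterone from the testes acts on cells through steroid receptors, transcription factors that bind paired half-sites in DNA, and after conversion by aromatase also through oestrogen receptors. Spinal motor neurons are long known as androgen targets, and glia and vessels carry steroid receptors too. The cord itself is wrapped in meninges rich in fibroblasts and collagen and is fed by vessels whose endothelium, pericytes and basement membrane form the blood-cord barrier.

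Calls of higher after castration were frequent in lists of connective and vascular genes, and calls of lower in several neuronal lists. A gene was called where its adjusted p in edgeR was under 0.1, and 1995 of 14931 genes tested were (13.4%), 1012 of them higher (6.78%) and 983 lower (6.58%) in GDX males. The changes upward were the larger ones. Of the genes called higher 152 changed at least 2-fold, against 16 of those called lower, and the medians of the log2 fold change were 0.43 and -0.26. The median level, which gene length also affects, was 52.6 CPM in genes called lower against 16.1 CPM in genes called higher. Among genes at 100 CPM or more, 18.5% were called lower and 6.62% higher, whereas between 1 and 3 CPM these shares were 0.681% and 6.08%. Over all genes tested the median log2 fold change was 0.0021. With library class as a term, 336 genes were called higher and 460 lower. Without GDX male 5 the counts were 593 and 609.

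Olfml2a (ENSRNOG00000014034), which encodes a secreted olfactomedin-like protein, had the smallest p of all genes. It stood at 17.6, 16.3, 16.9, 20.8 and 19 CPM in GDX males and at 9.96, 9.24, 8.75, 8.52 and 8.18 CPM in intact males. The groups did not overlap, and the lowest GDX male was well above the highest intact one. The mean was 2.03-fold higher in GDX males (edgeR, log2 fold change 1.02 ± 0.087, adjusted p = 0.000102). Cald1 (ENSRNOG00000010233), whose product binds actin and calmodulin, came next at 57.3, 62.4, 56.6, 67.2 and 60.2 CPM in GDX males and at 38.4, 43.2, 40.9, 44.4 and 39.4 CPM in intact males. Here too every GDX value was above every intact value (log2 fold change 0.56 ± 0.059, adjusted p = 0.000874). Cdh5 (ENSRNOG00000013324), the cadherin that joins endothelial cells, stood at 17.6, 17.9, 20.7, 30.3 and 19.8 CPM in GDX males and at 9.61, 9.69, 10.4, 8.704 and 6.81 CPM in intact males. GDX male 5 was far above the other GDX males, and all 5 were above the intact ones (log2 fold change 1.23 ± 0.15, adjusted p = 0.00136). Stab1, a scavenger receptor of macrophages and endothelium, stood at 9.07, 10.1, 11.1, 12.7 and 11.9 CPM in GDX males and at 5.87, 5.33, 6.86, 4.57 and 5.17 CPM in intact males. The groups were again apart (log2 fold change 0.98 ± 0.13, adjusted p = 0.00198). The other 6 genes with the smallest p among those that rose were Apcdd1, an inhibitor of Wnt signalling, Ahnak, a large scaffold protein, Tgm2, which crosslinks matrix proteins, Jcad, a protein of endothelial junctions, Fndc1 and RGD1310587. Their log2 fold changes ran from 0.58 in Apcdd1 to 1.06 in Ahnak.

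Flt3 (ENSRNOG00000054764), a receptor tyrosine kinase, led the genes that fell. It stood at 30.4, 30.6, 28.1, 27.7 and 28.7 CPM in GDX males and at 42.1, 39.2, 38.2, 39.7 and 41.6 CPM in intact males. The ranges within each group were narrow and did not meet (log2 fold change -0.46 ± 0.052, adjusted p = 0.00124). Kcnt1 (ENSRNOG00000017283), a potassium channel opened by sodium, stood at 52.7, 49.1, 39.99, 37.1 and 41.6 CPM in GDX males and at 65.4, 66.4, 60.5, 60 and 61.5 CPM in intact males. All GDX values lay below the intact ones, with GDX males 4, 5 and 6 lowest (log2 fold change -0.51 ± 0.082, adjusted p = 0.00554). Unc80, a subunit of the sodium leak channel complex, stood at 257, 254, 225, 217 and 239.6 CPM in GDX males and at 315, 317, 279.7, 298 and 304 CPM in intact males. This is a drop with no overlap between the groups (log2 fold change -0.35 ± 0.055, adjusted p = 0.00546). Kif3c, a kinesin motor, and Snap91, which assembles clathrin coats at synapses, fell by 0.29 and 0.28 in log2. Tlcd3b, Zfyve28, Them6, Atp8b3 and AABR07050487.1 completed the 10 smallest p among lowered genes, with log2 fold changes from -0.47 to -0.34. Over all genes tested, the groups did not overlap in 533 that were higher and 582 that were lower in GDX males.

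The largest fold changes among called genes whose groups were apart, and whose higher mean was at least 1 CPM, were in genes of low level. Slc26a7, an anion exchanger, stood at 0.795, 1.79, 2.09, 3.83 and 2.08 CPM in GDX males and at 0.353, 0.296, 0.151, 0.3704 and 0.262 CPM in intact males. The GDX values varied widely but all exceeded the intact ones, 7.11-fold on average (log2 fold change 2.83 ± 0.41, adjusted p = 0.00375). Tnnt2, the troponin T of cardiac muscle, rose 6.29-fold, the signalling protein Wnt6 4.98-fold, the granzyme Gzmm 4.79-fold and Esm1, the endothelial proteoglycan endocan, 4.29-fold. Slc26a7 and Gzmm, at means of 0.286 and 0.225 CPM in intact males, had enough counts to be tested only through the GDX males. Downward, Rlim, a ubiquitin ligase, stood at 1.46, 0.864, 1.08, 0.638 and 1.56 CPM in GDX males and at 2.05, 3.92, 1.88, 1.67 and 9.75 CPM in intact males. Intact male 6 was far above the rest (log2 fold change -1.78 ± 0.47, adjusted p = 0.0304), and Rlim was not called with library class as a term. Mir431, LOC102555038, AABR07058976.1 and AABR07018226.1 had log2 fold changes from -1.23 to -0.90 at mean levels no higher than 2.5 CPM. Of these, only AABR07058976.1 was also called with the class term, and AABR07018226.1 was not called without intact male 2 (adjusted p = 0.102).

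**Figure D1:**
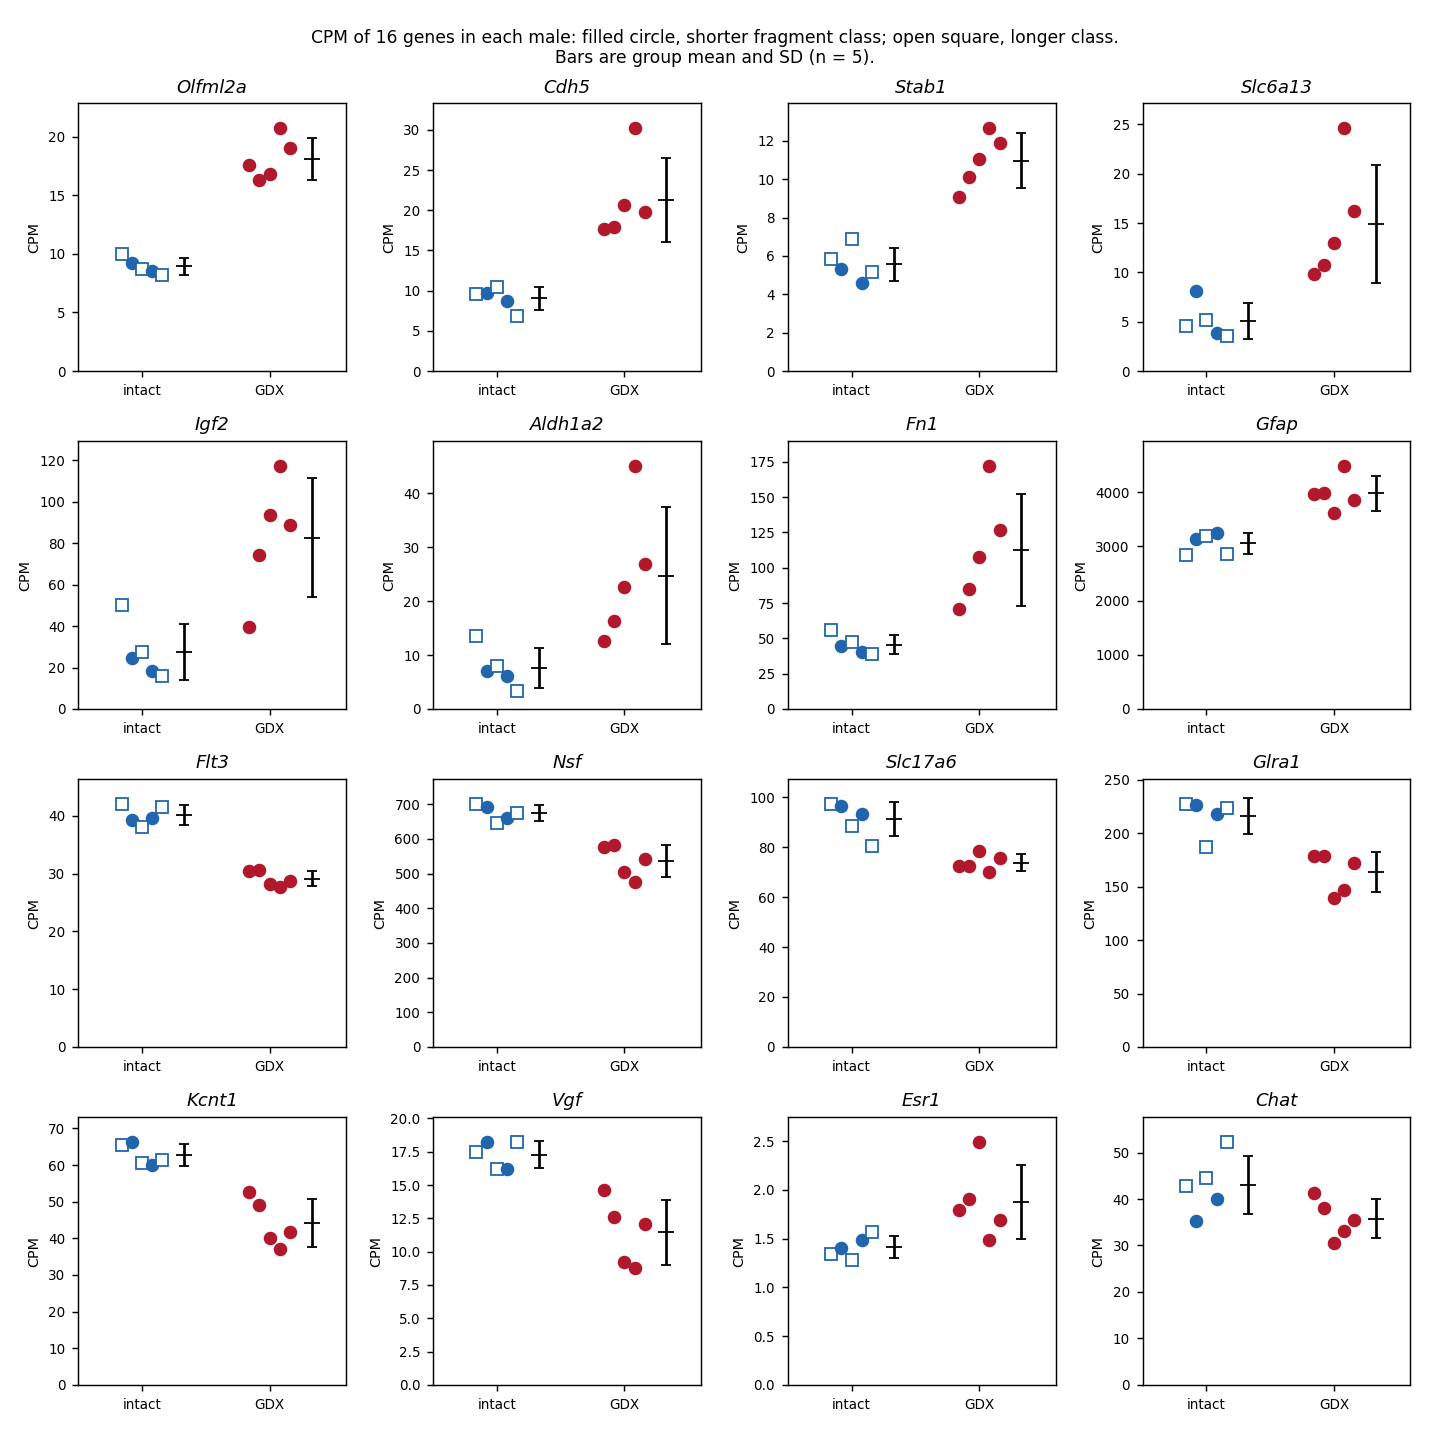
CPM of 16 genes (vertical axis, from 0) in each of the 5 intact and 5 GDX males, filled circles for the shorter and open squares for the longer fragment class, with the group mean and SD as bars. The first 8 panels show genes with higher GDX means, the next 6 genes with lower ones, and Esr1 and Chat, in the last 2, were not called.

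Promoters are printed for 2 genes in each direction, those that have an entry and the smallest p, because steroid receptors bind DNA at short half-sites. The sequences are from RefSeq on build GRCr8 and run from 250 bases before to 50 bases after the start, all here on the + strand. Olfml2a lies at chr3:43098049-43098348, the 2 starts of Cald1 at chr4:64233006-64233305 and chr4:64343465-64343764, Flt3 at chr12:12659785-12660084 and Tlcd3b at chr1:190863683-190863982. Capitals mark AGAACA on either strand, a half-site of steroid response elements.
Olfml2a: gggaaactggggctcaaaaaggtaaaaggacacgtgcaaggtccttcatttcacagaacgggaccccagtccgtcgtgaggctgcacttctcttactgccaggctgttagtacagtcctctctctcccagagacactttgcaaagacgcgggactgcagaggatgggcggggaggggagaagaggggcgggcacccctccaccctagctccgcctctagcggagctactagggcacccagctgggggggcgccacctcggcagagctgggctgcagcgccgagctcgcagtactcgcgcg
Cald1, start 1: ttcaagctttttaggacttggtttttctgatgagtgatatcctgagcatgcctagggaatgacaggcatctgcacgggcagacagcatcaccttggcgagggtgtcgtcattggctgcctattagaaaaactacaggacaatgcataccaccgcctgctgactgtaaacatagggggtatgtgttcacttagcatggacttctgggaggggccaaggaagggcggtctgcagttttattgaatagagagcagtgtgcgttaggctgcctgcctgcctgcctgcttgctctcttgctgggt
Cald1, start 2: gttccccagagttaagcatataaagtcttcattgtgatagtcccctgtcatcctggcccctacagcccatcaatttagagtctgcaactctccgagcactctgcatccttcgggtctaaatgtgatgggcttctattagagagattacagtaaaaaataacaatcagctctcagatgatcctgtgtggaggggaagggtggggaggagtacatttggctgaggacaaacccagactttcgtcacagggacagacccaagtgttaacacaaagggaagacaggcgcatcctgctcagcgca
Flt3: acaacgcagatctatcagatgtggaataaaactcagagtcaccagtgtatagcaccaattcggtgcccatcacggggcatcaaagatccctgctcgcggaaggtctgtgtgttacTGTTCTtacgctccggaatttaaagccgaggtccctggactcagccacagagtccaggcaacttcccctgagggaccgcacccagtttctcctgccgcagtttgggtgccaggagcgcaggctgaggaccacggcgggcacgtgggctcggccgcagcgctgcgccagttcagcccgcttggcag
Tlcd3b: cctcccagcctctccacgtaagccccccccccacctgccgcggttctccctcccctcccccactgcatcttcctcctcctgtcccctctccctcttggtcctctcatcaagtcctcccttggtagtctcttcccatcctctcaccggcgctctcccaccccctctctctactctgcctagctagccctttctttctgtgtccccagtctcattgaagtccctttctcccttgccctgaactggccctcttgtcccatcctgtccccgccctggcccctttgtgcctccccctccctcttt
The Flt3 promoter held 1 match, on the reverse strand and beginning at position -135 from the start, and the other 4 sequences held none.

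Over the table, AGAACA on either strand was in 20.7% of all 33469 RefSeq promoters of this length and in 12.3% of the 11750 promoters of tested genes. It was in 12.5% of the 762 promoters of genes called higher and in 10.6% of the 796 of genes called lower. AGGTCA on either strand, the oestrogen receptor half-site, was in 16.2% of all promoters and in 11.8%, 11.9% and 11.2% of the same 3 sets. The 2 motifs do not share a sequence. A pair of inverted AGAACA sites 3 bases apart was in 0.0149% of all promoters. A match is a description of letters, and called and tested genes held these motifs at like shares.

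Functions were then read from 64 lists of genes for cell types, pathways and complexes. The lists were chosen with earlier results of these data known, so their shares, medians and ranks are descriptions and were not tested. Counts of called members below are to be read beside 6.78% of all genes called higher and 6.58% lower. More members were called higher than lower in 43 lists, and more lower than higher in 16. With the class term these were 29 and 24. The 43 include lists with 1 call and a share below that of all genes, such as homeostatic microglia (3.85%) and interferon-stimulated genes (2.63%). Some lists also share genes. Numbers of lists thus do not measure a shift over all genes, where 1012 were called higher and 983 lower. Among lists with at least 20 members tested, those of meninges, basement membrane, endothelium and matrix glycoproteins had the highest medians, and those of synaptic vesicles, motor neurons and the main cation channels had the lowest.

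**Figure D2:**
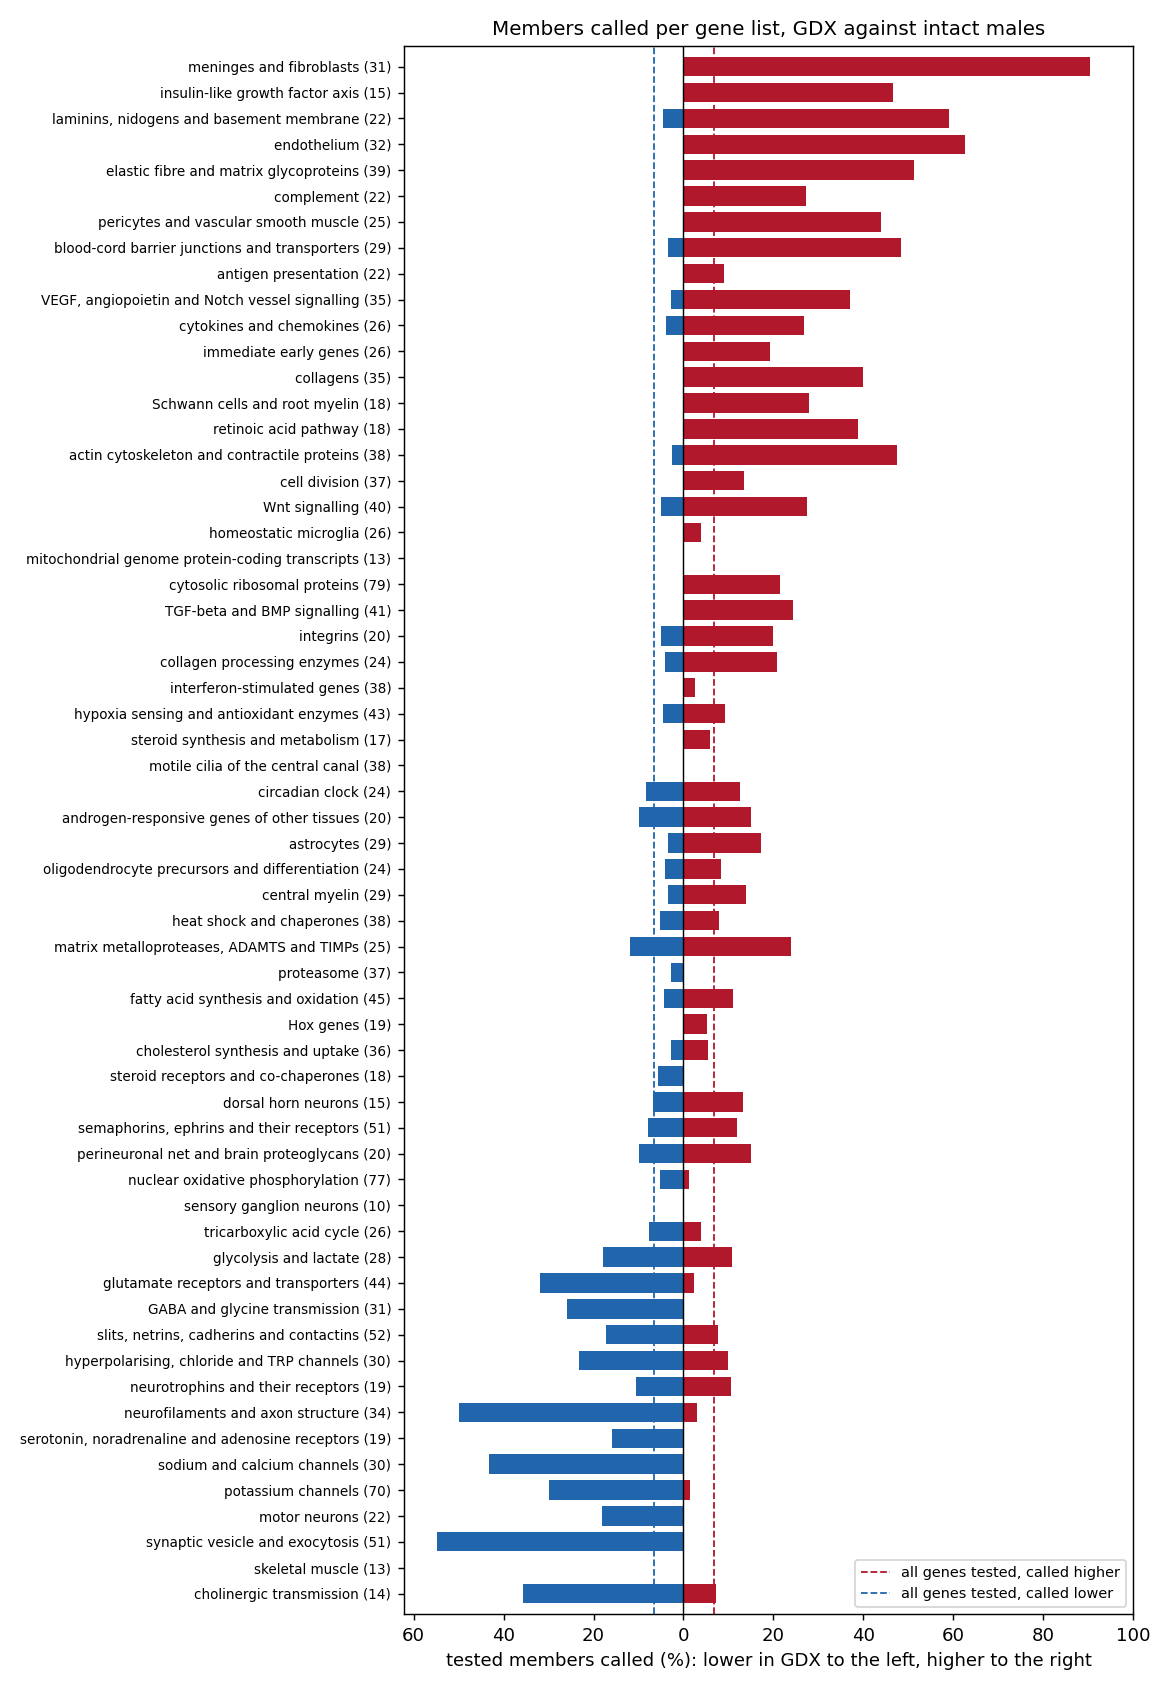
Share of each list's tested members called lower (bars to the left) and higher (bars to the right) in GDX against intact males, in percent, for the lists with at least 10 members tested, ordered by median log2 fold change. The number tested follows each name, dashed lines mark the shares over all genes, 6.78% higher and 6.58% lower, and meninges and fibroblasts stand at the top with 90.3% called higher.

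Genes of the meninges and fibroblasts had the highest median of the 64 lists. Of 31 members tested of 33 in the table, 28 rose and the other 3 were not called, with a median log2 fold change of 1.19 against 0.0021 over all genes. The 4 defining markers Dcn, Lum, Slc6a13 and Col1a1, none of them at 0 in any rat, summed to 69.3, 120, 186, 221 and 204 CPM in GDX and 79.8, 59.5, 59.8, 39.7 and 27.8 CPM in intact males. Col1a1, a chain of type I collagen, was at 116 ± 51.1 against 33.3 ± 17.8 CPM. GDX male 1 lay below intact male 1, and the other 4 GDX males were above every intact male. In bulk tissue, more cells of a type and more RNA per cell cannot be told apart, and how much of the membranes stayed on each piece was not measured. Slc6a20, an amino acid transporter of the meninges, stood at 18.02, 18.03, 25.1, 56.1 and 32.1 CPM in GDX males and at 8.41, 10.8, 6.41, 9.44 and 5.37 CPM in intact males. All GDX males exceeded all intact ones (log2 fold change 1.88 ± 0.29, adjusted p = 0.00483). Slc6a13, a GABA and taurine transporter of meningeal fibroblasts, stood at 9.802, 10.7, 13.02, 24.7 and 16.3 CPM in GDX males and at 4.52, 8.14, 5.13, 3.89 and 3.54 CPM in intact males, again with no overlap (log2 fold change 1.57 ± 0.26, adjusted p = 0.00554). Foxc1, a transcription factor that meninges need to form, rose from 5.22 ± 1.14 to 11.9 ± 2.52 CPM. With the class term 14 members were called higher, at a median of 1.22. Fits that each left out 1 rat called 19 to 28, the fewest without GDX male 5.

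Lists of matrix genes had more members called higher than lower. Among elastic fibre and matrix glycoproteins 20 of 39 tested rose (median 0.45). Fn1, fibronectin, stood at 70.8, 84.9, 108, 172 and 127 CPM in GDX males and at 55.7, 44.4, 47.6, 40.1 and 39.1 CPM in intact males. The groups were apart, and GDX male 5 was highest (log2 fold change 1.31 ± 0.19, adjusted p = 0.00346). Tenascin C (Tnc) and Igfbp7 also rose, by 0.49 and 0.58 in log2. Of the basement membrane proteins 13 of 22 rose and 1 fell (median 0.53). Lama4, the laminin chain of vessel walls, stood at 25.8, 29.3, 30.3, 40.8 and 32.1 CPM in GDX males and at 19.4, 21.2, 18.2, 17.04 and 18.9 CPM in intact males, with no overlap (log2 fold change 0.74 ± 0.10, adjusted p = 0.00303), and Lama1 and Lamc3 rose by 0.81 and 0.89. The collagens had 14 of 35 higher (median 0.20). Col6a1, a chain of the microfibril-forming type VI collagen, stood at 13.6, 19.01, 20.3, 31.3 and 24.99 CPM in GDX males and at 9.61, 9.76, 9.12, 9.57 and 8.45 CPM in intact males. GDX males were clearly separate (log2 fold change 1.23 ± 0.17, adjusted p = 0.00288), and its partner chain Col6a2 rose by 1.00 and Col12a1 by 1.13. Among small leucine-rich proteoglycans, which bind collagen fibrils, 5 of 7 rose (median 0.84), Fmod, Prelp and Bgn among them.

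Enzymes that fold, crosslink or cut the matrix, and its receptors, had lower medians. Of the collagen processing enzymes 5 of 24 rose and 1 fell (median 0.12). The crosslinking oxidases Loxl1 and Lox rose 3.12-fold and 2.31-fold, and the collagen chaperone Serpinh1 1.25-fold. The proteases and their inhibitors gave 6 higher and 3 lower of 25 (median 0.012), with Adamts12, Adamts9 and the inhibitor Timp3 among the raised ones. Integrins, the matrix receptors, had 4 higher and 1 lower of 20 (median 0.13). Itgb4, which pairs with laminin-binding Itga6, rose by 1.42 ± 0.33 in log2, Itga6 by 0.19 ± 0.044 and Itgb1 by 0.23 ± 0.06. The class term left 8 matrix glycoproteins, 9 collagens, 2 leucine-rich proteoglycans, 1 collagen processing enzyme and 1 integrin called higher, and it ended the calls of Prelp, Loxl1, Lox, Adamts12, Adamts9, Timp3, Itgb4 and Itga6. Most of their fold changes stayed about as large, in log2 from 1.64 to 1.56 in Loxl1, from 1.42 to 1.498 in Itgb4 and from 0.48 to 0.46 in Timp3, while that of Prelp fell from 0.84 to 0.55. Without GDX male 5, 12 matrix glycoproteins, 3 leucine-rich proteoglycans and 3 collagen processing enzymes were called higher, and without GDX male 2 1 protease or inhibitor was called lower.

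Vessel genes formed the next group. Of 32 endothelial genes 20 rose and 12 were not called (median 0.49). The endothelial markers Cldn5 and Cdh5, at 0 in no rat, summed to 50.7, 56.2, 48.2, 59.5 and 42.2 CPM in GDX and 26.6, 33.5, 32.8, 33.3 and 27.8 CPM in intact males. The lowest GDX sum was above the highest intact one. Cldn5 is the tight junction protein of barrier endothelium. Podxl, a sialomucin of the vessel lumen, and the transcription factor Ets1 rose by 0.63 ± 0.092 and 0.44 ± 0.068 in log2. Barrier junctions and transporters gave 14 higher and 1 lower of 29 (median 0.26). Abcb1a, the efflux pump P-glycoprotein, stood at 79.3, 82.3, 82.2, 82.2 and 73.7 CPM in GDX males and at 59.2, 66.6, 62.8, 66.9 and 65.9 CPM in intact males. The groups did not overlap (log2 fold change 0.31 ± 0.049, adjusted p = 0.00483). Occludin (Ocln) and the organic anion transporter Slco1a4 also rose, by 0.58 and 0.45. Pericytes and vascular smooth muscle had 11 of 25 higher (median 0.27). Rgs5, a pericyte regulator of G protein signalling, stood at 34.1, 30.1, 25.5, 24.5 and 20.3 CPM in GDX males and at 12.8, 19.4, 17.7, 17.3 and 18.3 CPM in intact males, with the groups apart (log2 fold change 0.65 ± 0.13, adjusted p = 0.00957), and the endothelin receptor Ednra and the kinase Mylk rose by 1.04 and 0.27.

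Ligands and receptors that act on vessels, the list of VEGF, angiopoietins and Notch, had 13 higher and 1 lower of 35 (median 0.23). The angiopoietin receptor Tek and the apelin receptor Aplnr rose by 0.49 ± 0.091 and 0.61 ± 0.11 in log2. The member that fell was the ligand Vegfa itself, at 95.6 ± 3.68 CPM in GDX against 109 ± 10.8 CPM in intact males (log2 fold change -0.19 ± 0.061, adjusted p = 0.0628). Vegfa was called in 4 of the 10 fits that left out 1 rat, and not without GDX male 4, GDX male 5, GDX male 6, intact male 1, intact male 2 or intact male 5 (highest adjusted p = 0.149), while the class term kept its call. In the vessel lists that term ended most calls and moved the medians less. It left 4 endothelial genes, 3 barrier genes, 2 pericyte genes and 2 vessel signalling genes called higher, with medians of 0.33, 0.25, 0.26 and 0.17 in this order, and Cldn5, Ocln, Slco1a4, Rgs5, Ednra and Tek were no longer called. The fewest calls on leaving out 1 rat were 8, 7 and 7 in the barrier, pericyte and vessel signalling lists, each without GDX male 5.

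The contractile and actin cytoskeleton had more calls of higher than of lower. Of 38 members 18 were higher and 1 lower (median 0.17). Beside Cald1, the actin crosslinker filamin A (Flna) stood at 68.1 ± 11.6 CPM in GDX against 44.2 ± 4.94 CPM in intact males and the transgelin Tagln2 at 15.2 ± 2.47 CPM in GDX against 8.69 ± 1.19 CPM in intact males. Both were apart between the groups (adjusted p = 0.00554 and 0.00483). Under the class term 7 members were called higher.

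Among growth factor pathways the insulin-like growth factor axis had the highest median, 0.64, with 7 of 15 members higher and 8 not called. Igf2, a growth factor made in the adult by meninges and choroid plexus, stood at 39.7, 74.3, 93.5, 117 and 88.9 CPM in GDX males and at 50.04, 24.7, 27.6, 18.5 and 15.7 CPM in intact males. GDX male 1 fell below intact male 1, and the other GDX males were above all intact ones (log2 fold change 1.604 ± 0.29, adjusted p = 0.00678). The binding protein Igfbp2 followed at 68.4 ± 20.2 CPM in GDX against 37.9 ± 6.303 CPM in intact males (log2 fold change 0.85 ± 0.17, adjusted p = 0.00968), with overlapping groups. Igf1 rose by 1.01 ± 0.24 in log2, a call that the class term ended, and 4 members of the axis kept a call of higher with it.

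Retinoic acid is made by aldehyde dehydrogenases, carried by binding proteins and removed by Cyp26 enzymes. Of this pathway 7 of 18 members rose (median 0.19). Aldh1a2, the enzyme of synthesis in meninges, stood at 12.5, 16.2, 22.7, 45.1 and 26.9 CPM in GDX males and at 13.6, 7.1, 7.92, 6.17 and 3.34 CPM in intact males. Intact male 1 exceeded GDX male 1, so that the groups overlapped (log2 fold change 1.698 ± 0.34, adjusted p = 0.0097). Cyp26b1, which degrades retinoic acid, rose 3.01-fold and Crabp2, which carries it to the nucleus, 2.89-fold, and 11 members were not called. The class term kept 4 calls at a median of 0.31, and without GDX male 5 there were 3.

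Wnt signalling had 11 higher and 2 lower of 40 (median 0.16). The ligands Wnt4 and Wnt5b rose 3.22-fold and 2.32-fold, and so did the inhibitor Apcdd1, 1.497-fold. TGF-beta and BMP signalling had 10 of 41 higher (median 0.13). Bmp6, a ligand of this family that endothelium makes, rose by 1.11 ± 0.21 in log2, and Id1 and Id3, transcriptional targets of BMP signalling, by 0.72 ± 0.15 and 0.45 ± 0.10. Adding the class term left 4 Wnt genes and 1 TGF-beta gene called higher, and neither Id1 nor Id3. GDX male 5 mattered here as well, with 6 and 6 genes called higher without it.

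Immune cells were read from lists of their genes, beside 6.78% of all genes called higher. Macrophages at the borders of the cord, which sit beside vessels and in the meninges, had 5 of 9 genes higher (median 0.85). Their markers Mrc1, Cd163 and Lyve1, none at 0, summed to 16.2, 18.1, 19.6, 23.7 and 19.6 CPM in GDX and 15.6, 17, 11.1, 12.1 and 8.76 CPM in intact males. GDX male 1 fell below intact male 2, the others were above every intact male, and the mannose receptor Mrc1 and the coagulation factor F13a1 rose by 0.85 and 0.96. Homeostatic microglia, the resident macrophages of the tissue itself, had 1 of 26 higher (3.85%), at a median of 0.16. The called gene was C1qc, a chain of complement C1q, at 13.6 ± 2.503 CPM in GDX against 9.91 ± 1.63 CPM in intact males (log2 fold change 0.46 ± 0.13, adjusted p = 0.0445). It was called in 7 of the 10 fits that left out 1 rat and not without GDX male 5, intact male 1 or intact male 2 (highest adjusted p = 0.112). Aif1, a microglial landmark, was not called (log2 fold change 0.14 ± 0.10, adjusted p = 0.455).

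Of the complement list 6 of 22 rose (27.3%, median 0.28), beside 6.78% of all genes called higher. The inhibitor Serping1 and the terminal component C7 rose 1.96-fold and 2.19-fold. Cytokines and chemokines gave 7 higher and 1 lower of 26 (median 0.22). Il1r1, the interleukin 1 receptor, and Csf1, a growth factor of microglia and macrophages, rose by 0.69 ± 0.18 and 0.23 ± 0.052 in log2, and the lowered member was Flt3. Without GDX male 5 the genes called higher were 3 of complement and 4 of the cytokines. Antigen presentation had 2 of 22 higher (median 0.23), B2m of the class I complex by 0.26 ± 0.064 and the peptide-trimming Erap1 by 0.22 ± 0.067, the latter not without GDX male 4, GDX male 5, intact male 1 or intact male 5 (highest adjusted p = 0.141). Interferon-stimulated genes had 1 of 38 higher at a median of 0.097, which became -0.12 with the class term. Its called gene, the guanylate-binding Gbp5 (0.51 ± 0.16), was not called without GDX male 4, GDX male 6, intact male 1, intact male 3 or intact male 6 (highest adjusted p = 0.142). Markers of lymphocytes and granulocytes were mostly too low to test. Of 32 such genes found in the table, 3 passed the filter on low counts and 2 rose (median 1.05), Gzmm and the iron-binding Lcn2. Lcn2 was called in 4 of the 10 fits without 1 rat, and not without GDX male 2, GDX male 4, GDX male 5, intact male 1, intact male 5 or intact male 6 (highest adjusted p = 0.208). The class term left 1 border macrophage gene and 1 complement gene called higher and raised the antigen presentation count to 5, and the calls of Mrc1, F13a1, C1qc, Serping1, C7, Il1r1, Csf1, Gbp5 and Lcn2 ended.

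Cells that are not of the cord proper were followed through their own lists. The list of Schwann cells, which make the myelin of nerve roots, had 5 of 18 genes higher (median 0.19). It shares genes with central myelin, and Mbp, which belongs to both, was among those called. Prx, periaxin, a protein of peripheral glia, stood at 3.91, 8.24, 13.4, 10.7 and 12.9 CPM in GDX males and at 5.37, 3.402, 10.1, 2.53 and 2.23 CPM in intact males. The groups overlapped through intact males 1 and 3 and GDX males 1 and 2, with a call close to the threshold (log2 fold change 1.07 ± 0.38, adjusted p = 0.0955). The GDX males with the highest meningeal sums, 4, 5 and 6, also had the most Prx. Among intact males the orders differed. Prx was highest in intact male 3, whose meningeal sum was 59.8 CPM, while that sum was highest in intact male 1, at 79.8 CPM. The part of nerve roots in the other results was not tested. Mpzl2 and Art3 rose by 0.67 ± 0.14 and 0.50 ± 0.09 in log2. Leaving out single rats moved this list's count between 2 and 8, the fewest without GDX male 4.

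The haemoglobin and erythroid list had 4 of 8 genes higher (median 0.88), 2 of them entries named Hba-a2 of near-equal sequence, between which reads are uncertain. Hbb and Alas2, at 0 in no rat, summed to 2.06, 2.48, 12.6, 4.86 and 6.59 CPM in GDX and 3.31, 2.29, 1.74, 1.55 and 1.44 CPM in intact males, with GDX male 4 highest. The erythroid calls all ended with the class term, at a median of 0.97, and without GDX male 4 2 were left. Skeletal muscle genes were not called in edgeR in either direction among 13 tested (median -0.25). At an unadjusted p under 0.05 there was 1 higher and 0 lower, and DESeq2 called 0. Acta1 and Ckm summed to 3.78, 4.62, 10.9, 3.52 and 2.97 CPM in GDX and 3.39, 24.4, 3.63, 3.41 and 2.29 CPM in intact males. Intact male 2 and GDX male 4 stood out, and Ckm was at 0 in some libraries. Genes of sensory ganglion neurons gave the same counts of 0 in edgeR among 10 tested (median -0.049), with 0 at an unadjusted p under 0.05 and 0 in DESeq2. Their markers summed to 4.11, 4.22, 3.82, 3.45 and 3.42 CPM in GDX and 3.88, 5.98, 3.78, 3.97 and 4.44 CPM in intact males.

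Most lists of neuronal genes had more members called lower than higher, with the largest share at the synapse. Of 51 genes of synaptic vesicles and exocytosis 28 fell and 23 were not called (median -0.24). With the class term 25 were called lower, at a median of -0.29. Nsf, the ATPase that takes apart SNARE complexes after fusion, stood at 576, 582, 503, 476 and 541 CPM in GDX males and at 702, 691, 647, 661 and 676 CPM in intact males. No GDX value reached an intact one (log2 fold change -0.33 ± 0.056, adjusted p = 0.00554). Slc17a6, the vesicular glutamate transporter of spinal excitatory neurons, stood at 72.5, 72.4, 78.5, 69.9 and 75.7 CPM in GDX males and at 97.5, 96.4, 88.5, 93.4 and 80.5 CPM in intact males. The groups were apart, though intact male 6 came close to GDX male 4 (log2 fold change -0.31 ± 0.055, adjusted p = 0.0068). Syt3, a calcium sensor of exocytosis, fell by 0.26. The neuronal markers Rbfox3, Snap25 and Syt1, none at 0, summed to 848, 848, 870, 710 and 819 CPM in GDX and 980, 977, 888, 938 and 944 CPM in intact males. Every GDX sum was below every intact sum. Whether the neuronal share of the tissue changed was not tested.

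Some genes of both main transmitter classes were called lower. Glutamate receptors and transporters gave 14 lower and 1 higher of 44 (median -0.11). Grin1, the obligatory NMDA receptor subunit, stood at 192, 184, 154, 139 and 155 CPM in GDX males and at 230.3, 225, 192, 223 and 202 CPM in intact males. GDX male 1 and intact male 3 were nearly level, and the other GDX males lay below every intact male (log2 fold change -0.38 ± 0.081, adjusted p = 0.0121), and Cacng2, which brings AMPA receptors to the membrane, fell by 0.33. Of GABA and glycine genes 8 of 31 fell (median -0.11). Glra1, the adult glycine receptor subunit, stood at 179, 179, 139, 147 and 172 CPM in GDX males and at 228, 226, 187, 218 and 223 CPM in intact males. Intact male 3 was lowest of its group and still above every GDX male (log2 fold change -0.41 ± 0.075, adjusted p = 0.00773). Slc6a5, the glycine transporter of inhibitory terminals, stood at 266, 259, 235, 212 and 249 CPM in GDX males and at 347, 342, 289, 300.3 and 303 CPM in intact males, without overlap (log2 fold change -0.37 ± 0.067, adjusted p = 0.0068). Slc12a5, the potassium chloride cotransporter on which inhibition depends, fell by 0.35. Under the class term 8 glutamate genes were called lower, and without GDX male 5 4 GABA and glycine genes were.

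Cholinergic genes gave 5 lower and 1 higher of 14 (median -0.28). The nicotinic subunit Chrnb2 and acetylcholinesterase (Ache) fell by 0.41 and 0.29, while another nicotinic subunit, Chrnb3, rose 4.2-fold at 2.42 ± 1.38 CPM in GDX against 0.567 ± 0.284 CPM in intact males. Receptors of serotonin, noradrenaline, dopamine and adenosine had 3 of 19 lower (median -0.18), the adrenergic Adra1a (-0.31 ± 0.066), the serotonergic Htr2c (-0.22 ± 0.068) and the dopaminergic Drd2 (-0.47 ± 0.16). Leaving out 1 rat ended the call of Htr2c without GDX male 2, GDX male 5, intact male 1 or intact male 2 (highest adjusted p = 0.144) and that of Drd2 without GDX male 2, GDX male 4, GDX male 5, intact male 1, intact male 2 or intact male 3 (highest 0.185). With the class term 2 cholinergic genes and 1 of these receptors were called lower, and Chrnb3, Ache, Htr2c and Drd2 were not called. The fewest cholinergic genes called lower with 1 rat left out were 2, without GDX male 4.

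Ion channel lists had more members called lower than higher, and most members were not called. Potassium channels gave 21 lower and 1 higher of 70 (median -0.20). Beside Kcnt1, the axonal channel Kcna2 stood at 579 ± 28.6 CPM in GDX against 686 ± 29.8 CPM in intact males and Kcnh2 at 72.3 ± 8.34 CPM in GDX against 93.6 ± 5.08 CPM in intact males (adjusted p = 0.0082 and 0.00773), both with no overlap. Of the sodium and calcium channels 13 of 30 fell and 17 were not called (median -0.20). Scn1a, a voltage-gated sodium channel of neurons, stood at 372, 386, 389, 365 and 407 CPM in GDX males and at 462, 460.02, 439, 433 and 469 CPM in intact males. The group ranges were well apart (log2 fold change -0.24 ± 0.043, adjusted p = 0.0069), and Cacna1b, the presynaptic N-type calcium channel, fell by 0.34. Pacemaker, chloride and TRP channels had 7 lower and 3 higher of 30 (median -0.13). Hcn2 and Hcn4, which open on hyperpolarisation, fell by 0.23 and 0.42, and the chloride channel Best1 rose by 0.30. The class term left 11, 7 and 4 called lower in these 3 lists, and Best1 uncalled. With 1 rat left out the fewest lower were 11 potassium channels, without GDX male 5, and 3 of the third list, without intact male 1.

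Axon structure had 17 lower and 1 higher of 34 (median -0.16). The kinesin light chain Klc2 and the ankyrin Ank2 fell by 0.24 and 0.19 in log2. With the class term 4 of this list were called lower and Ank2 was not, and without GDX male 5 there were 9. Adhesion and guidance genes of the slit, netrin, cadherin and contactin families gave 9 lower and 4 higher of 52 (median -0.12), with Cntnap1 of the paranodal junction at -0.33 ± 0.057 and the mesenchymal cadherin Cdh11 at 0.34 ± 0.057. Without GDX male 5, 5 were lower. Semaphorins, ephrins and their receptors had 6 higher and 4 lower of 51 (median -0.011), or 11.8% and 7.84% against 6.78% and 6.58% of all genes. Sema3b and Plxnd1, a plexin of endothelium, rose by 0.67 and 0.48, and the neuronal plexin Plxna4 fell by 0.34, a call the class term ended. Without GDX male 4, 2 of this list were lower.

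Motor neurons, the output cells of this tissue, had 4 of 22 genes lower (median -0.21), and with the class term 2, at a median of -0.038. The mean log2 CPM of the list was 5.81, 5.801, 5.73, 5.71 and 5.86 in GDX and 5.85, 5.75, 5.97, 5.82 and 6.35 in intact males. Intact male 6 stood above the rest and the groups overlapped. Chat stood at 41.3, 38.1, 30.6, 33.2 and 35.5 CPM in GDX males and at 42.9, 35.4, 44.6, 39.9 and 52.4 CPM in intact males, with overlap, and was not called (log2 fold change -0.27 ± 0.098, adjusted p = 0.11). The class term moved its log2 fold change to -0.075. Slc18a3, the vesicular acetylcholine transporter, stood at 44.97, 44.01, 34.1, 37.6 and 45.7 CPM in GDX males and at 50.2, 46.7, 56.02, 46.7 and 78.5 CPM in intact males. The groups came close without crossing (log2 fold change -0.43 ± 0.13, adjusted p = 0.0542), and the call was lost with the class term (log2 fold change -0.18) and without GDX male 4 or GDX male 5 (highest adjusted p = 0.129). Esrrg, an orphan nuclear receptor of gamma motor neurons, fell by 0.33 and the neuronal splicing factor Rbfox3 by 0.33, the latter not called with the class term. The fewest of this list called lower with 1 rat left out were 2, without GDX male 4. Dorsal horn genes gave 2 higher and 1 lower of 15 (median -0.0096). Calbindin 2 (Calb2) fell by 0.33, and the higher Pnoc and Reln were called in 5 of the 10 fits and 2 of the 10 fits that left out 1 rat, with highest adjusted p of 0.163 and 0.197 and neither called with the class term.

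Neurotrophins and their receptors had 2 higher and 2 lower of 19 (median -0.15), and 16 had a negative log2 fold change. Vgf, a secreted neuropeptide precursor induced by neurotrophins, stood at 14.6, 12.6, 9.24, 8.79 and 12.04 CPM in GDX males and at 17.5, 18.3, 16.2, 16.2 and 18.3 CPM in intact males. All GDX values were lower, most of all in males 4 and 5 (log2 fold change -0.59 ± 0.12, adjusted p = 0.00984). The neuregulin receptor Erbb3 fell by 0.23, and Gfra2, a receptor of neurturin, rose by 0.33 ± 0.094, but not with the class term or without intact male 1 or intact male 6 (highest adjusted p = 0.106). Genes of perineuronal nets, the matrix around neurons, gave 3 higher and 2 lower of 20 (median -0.016). These are 15% and 10%, against 6.78% and 6.58% of all genes. Leaving out 1 rat moved the lower count between 2 and 5. The raised ones were the hyaluronan-degrading Cemip (1.54 ± 0.25), Tnc and the hyaluronan receptor Cd44 (0.45 ± 0.074), which are also made outside neurons.

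Lists of glia of the cord had medians near 0, and their counts stand beside 6.78% of all genes called higher and 6.58% lower. Astrocyte genes gave 5 higher and 1 lower of 29 (median 0.04). The markers Gfap, Aqp4 and Aldh1l1, none at 0, summed to 5670, 5780, 5410, 6340 and 5690 CPM in GDX and 4360, 4680, 4880, 4910 and 4470 CPM in intact males, with every GDX sum above every intact one. Gfap made up most of it, and Aldh1l1 was not called (adjusted p = 0.152). Gfap, the intermediate filament of astrocytes, stood at 3958, 3979, 3617, 4489.8 and 3853 CPM in GDX males and at 2850.2, 3130.2, 3198, 3238 and 2853 CPM in intact males. Each GDX male exceeded each intact one (log2 fold change 0.38 ± 0.059, adjusted p = 0.00472), and the calcium-binding S100b rose by 0.26. Vimentin (Vim), which fibroblasts and endothelium share, rose 2.23-fold (log2 fold change 1.15) but was not called with the class term, at 1.14. Central myelin had 4 higher and 1 lower of 29 (median 0.029), Ermn and Ndrg1 among the first and the transcription factor Olig1 as the second (-0.27 ± 0.059). Mbp, myelin basic protein, stood at 13075 ± 771 CPM in GDX against 11641 ± 806 CPM in intact males (log2 fold change 0.17 ± 0.053, adjusted p = 0.067), called neither with the class term nor without GDX male 4, GDX male 5, GDX male 6, intact male 1, intact male 2 or intact male 6 (highest adjusted p = 0.167). Without GDX male 5, 2 central myelin genes were called higher. Oligodendrocyte precursor genes gave 2 higher and 1 lower of 24 (median 0.03), or 8.33% and 4.17%, near the shares of all genes. Pdgfra and Bmp4 made up the higher ones (0.23 ± 0.071 and 0.22 ± 0.069), in 7 of the 10 fits and 5 of the 10 fits with 1 rat left out, and neither with the class term. Motile cilia of the central canal had no call in edgeR among 38 tested, 1 higher and 1 lower at an unadjusted p under 0.05, and 1 higher in DESeq2. Their median of 0.052 became -0.19 with the class term.

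Steroid receptors and enzymes were read 2 weeks after surgery, beside 13.4% of all genes called in either direction. Esr1, oestrogen receptor alpha, stood at 1.79, 1.901, 2.495, 1.49 and 1.69 CPM in GDX males and at 1.34, 1.41, 1.28, 1.48 and 1.57 CPM in intact males, with overlap and no call (log2 fold change 0.40 ± 0.20, adjusted p = 0.25). Of 18 steroid receptors and co-chaperones 1 fell, Esrrg, and 17 were not called (median -0.0032). Esr2 had a log2 fold change of 0.041 ± 0.19, the progesterone receptor Pgr -0.17 ± 0.16, and Fkbp5, a co-chaperone induced by steroids in many tissues, 0.044 ± 0.11, none of them called. Nr3c1 was not analysed here, and aromatase (Cyp19a1) had too few counts to be tested. Srd5a1, which turns testosterone into dihydrotestosterone, was at 52.2 ± 3.94 CPM in GDX against 51.03 ± 2.57 CPM in intact males (log2 fold change 0.031 ± 0.058, adjusted p = 0.798). Of 17 genes of steroid synthesis and metabolism 1 rose (median 0.067), the hydroxysteroid dehydrogenase Akr1c14 (log2 fold change 0.85 ± 0.30, adjusted p = 0.097). It was called in 2 of the 10 fits with 1 rat left out (highest adjusted p = 0.244) and not with the class term. Genes known as androgen-responsive in other tissues gave 3 higher and 2 lower of 20 (median 0.04), among them Igf1 and Ndrg1 higher and Cenpn lower (-0.49 ± 0.13). None of these 3 was called with the class term. The Y-linked Kdm5d, present in all 10 males, was at 36.1 ± 3.63 CPM in GDX against 34.4 ± 2.103 CPM in intact males (log2 fold change 0.065 ± 0.071, adjusted p = 0.629).

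Energy metabolism was read from 6 lists, beside 6.78% of all genes called higher and 6.58% lower. Glycolysis and lactate genes gave 3 higher and 5 lower of 28 (median -0.058). Hexokinase 2 (Hk2) and the glucose transporter Slc2a1 of barrier endothelium rose by 0.30 ± 0.066 and 0.26 ± 0.06, and aldolase A (Aldoa) fell by 0.17. The citric acid cycle had 1 higher, Suclg2, and 2 lower, Idh3g and Ogdhl, of 26 (median -0.054). Oxidative phosphorylation encoded in the nucleus had 1 higher, Ndufa12, and 4 lower of 77 (median -0.022), with Uqcrc1 of complex III at -0.17 ± 0.041. Transcripts of the mitochondrial genome had no call in edgeR among 13 tested (median 0.15). At an unadjusted p under 0.05 there were 3 higher and 0 lower, and DESeq2 called 1 higher. Fatty acid genes gave 5 higher and 2 lower of 45 (median 0.0047), the desaturases Scd and Scd2 at 0.29 ± 0.055 and 0.19 ± 0.041 and the carrier Fabp7 at 0.29 ± 0.071. Cholesterol genes gave 2 higher, Npc2 and Apoe, and 1 lower, Lrp8, of 36 (median 0.00038). Npc2 was not called without GDX male 5 (adjusted p = 0.106), and Apoe and Lrp8 were called in 5 of the 10 fits and 3 of the 10 fits that left out 1 rat (highest adjusted p = 0.141 and 0.175). Under that term for library class, Hk2, Slc2a1, Aldoa, Suclg2, Idh3g, Ndufa12, Fabp7, Apoe and Lrp8 were not called. The fewest called on leaving out 1 rat were 2 lower in glycolysis and 3 higher among fatty acid genes, both without GDX male 5, and 2 lower in oxidative phosphorylation, without GDX male 2.

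Cytosolic ribosomal proteins had 17 of 79 higher (median 0.14), small rises such as Rpl31 at 0.28 ± 0.075, Rps24 at 0.27 ± 0.057 and Rps7 at 0.19 ± 0.046. This count hung on single rats, from 6 without GDX male 5 to 30, and was 11 with the class term. Of 37 proteasome genes 1 fell, Psmd3 (log2 fold change -0.15 ± 0.053, adjusted p = 0.0898), and 36 were not called (median 0.012). Psmd3 was called in 3 of the 10 fits with 1 rat left out (highest adjusted p = 0.192) and not with the class term. Heat shock and chaperone genes gave 3 higher and 2 lower of 38 (median 0.019). These shares, 7.89% and 5.26%, are near the 6.78% and 6.58% of all genes. Leaving out 1 rat moved the higher count between 2 and 6. The endothelial Hspa12b and Hspa2 were higher (0.54 ± 0.13 and 0.40 ± 0.08) and Hspa12a was lower (-0.26 ± 0.067). Of these 3 the class term kept Hspa2.

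Lists of stress, clock, growth and position genes had 1 to 6 calls each, beside 6.78% of all genes called higher and 6.58% lower. The clock list had 12.5% higher and 8.33% lower, and the Hox list 5.26% higher. Immediate early genes had 5 of 26 higher (median 0.20), Klf2, Klf4 and Ccn2 at 0.96 ± 0.24, 0.92 ± 0.18 and 1.04 ± 0.25, genes that endothelium and fibroblasts also express, and all 5 calls ended with the class term, which moved these 3 to 0.67, 0.73 and 1.13. Clock genes gave 3 higher and 2 lower of 24 (median 0.044), the repressor Bhlhe41 higher (0.22 ± 0.059), and Npas2 and Cry2 lower (-0.36 ± 0.095 and -0.15 ± 0.042). Cry2 was not called without intact male 5 (adjusted p = 0.104), and neither it nor Bhlhe41 with the class term. The genes called higher were 1 in the clock list without GDX male 5 and 3 in the immediate early list without GDX male 2. Cell division had 5 of 37 higher (median 0.16), with the cyclins Ccnd1 and Ccnd2 at 0.27 ± 0.054 and 0.28 ± 0.074 and the spindle protein Tpx2 at 0.45 ± 0.11. Hypoxia and antioxidant genes gave 4 higher and 2 lower of 43 (median 0.069), or 9.3% and 4.65%, near the shares of all genes. Among the higher ones were Nfe2l2, the master regulator of antioxidant genes, at 0.31 ± 0.065 and the vessel peptide Adm at 0.67 ± 0.19. The class term kept neither, and Adm was also not called without GDX male 5 (adjusted p = 0.106), when 1 gene of the list was called higher. Hox genes, which record position along the body axis, had 1 of 19 higher (median 0.00075), Hoxb9 (log2 fold change 0.88 ± 0.31, adjusted p = 0.093). It was called in 3 of the 10 fits with 1 rat left out, with a highest adjusted p of 0.197, and also with the class term, at a log2 fold change of 1.58 (adjusted p = 0.0657). With the class term 4 Hox genes were higher and 1 lower, at a median of -0.13.

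**Figure D3:**
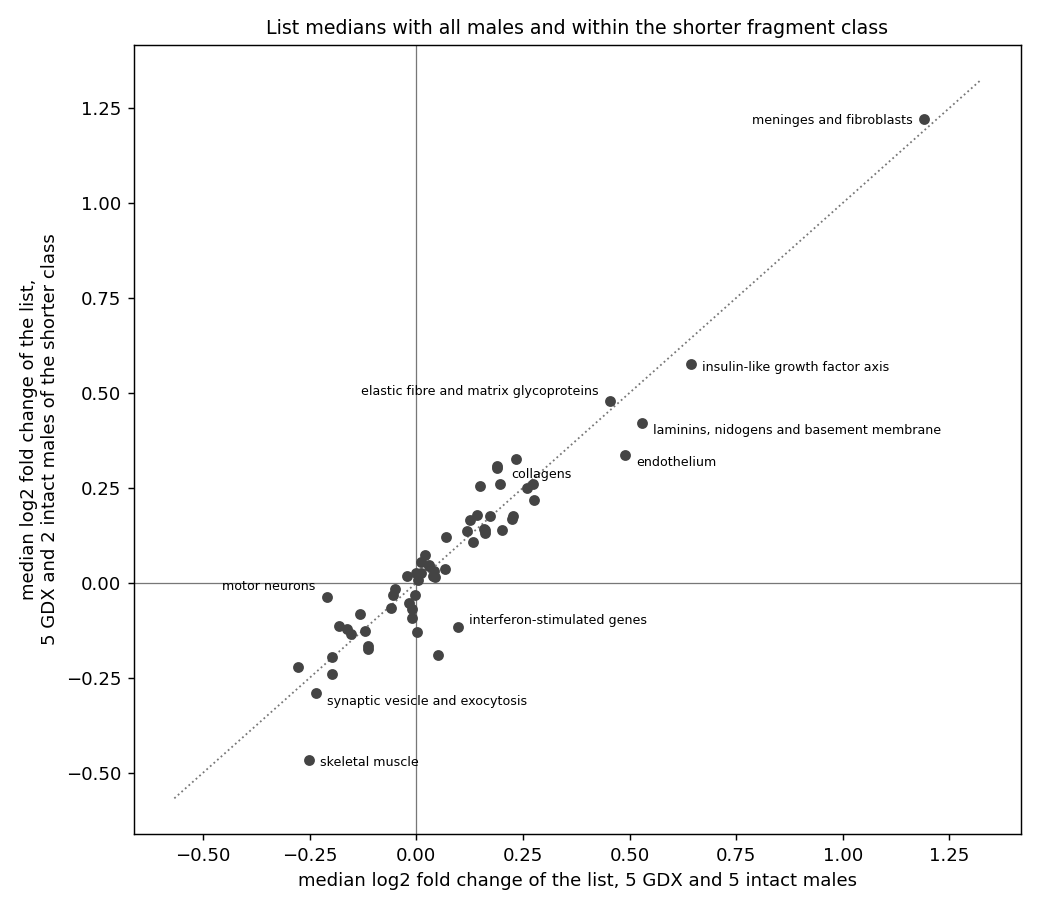
Median log2 fold change of each list with at least 10 members tested, from all 5 GDX and 5 intact males (horizontal) and from the 5 GDX and 2 intact males of the shorter fragment class (vertical), with a dotted line of equal values. Meninges and fibroblasts stand at 1.19 and 1.22, endothelium at 0.49 and 0.34, synaptic vesicles at -0.24 and -0.29.

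Within the shorter fragment class, where 5 GDX males meet 2 intact ones, many list medians stayed near those of all males while calls became fewer. The meninges and fibroblast list had 10 members called higher and the synaptic vesicle list 22 called lower. The endothelial median was 0.34 in place of 0.49, with 3 called, and the motor neuron median was -0.037 in place of -0.21. Of the 181 named genes called, 72 were not called with the class as a term and 101 not within the shorter class, and none turned its direction. Of the 72, 66 kept a log2 fold change within 1.5 times of the main one, and in the other 6, Gbp5, Gfra2, Ocln, Prelp, Reln and Slc18a3, it became smaller. Smaller lists lost calls as well, with 0 cytokine genes, 0 proteases or inhibitors, 0 glycolysis genes, 2 astrocyte genes, 2 fatty acid genes, 3 cell division genes, 2 semaphorin or ephrin genes, 2 central myelin genes, 0 clock genes and 0 hypoxia or antioxidant genes called higher with the class term, and 1 glycolysis gene, 1 oxidative phosphorylation gene and 1 protease or inhibitor called lower. For the genes with the smallest p, Olfml2a had log2 fold changes of 1.03 ± 0.12 with the class term and 1.03 ± 0.12 within the class, and Flt3 had -0.44 ± 0.069 and -0.44 ± 0.07.

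Rats within a group differed widely in some lists. The level of the meninges and fibroblast list, its mean log2 CPM, was 2.91, 3.17, 3.61, 4.22 and 3.67 in GDX and 2.798, 2.46, 2.43, 2.24 and 1.86 in intact males. GDX male 5 was highest and GDX male 1 lowest of its group, only a little above intact male 1. Synaptic vesicle genes stood at 6.25, 6.302, 6.16, 6.01 and 6.19 in GDX and 6.41, 6.51, 6.35, 6.43 and 6.296 in intact males. GDX male 5 was here the lowest of all, and GDX male 2 and intact male 6 were nearly level. The endothelial list stood at 3.45, 3.53, 3.43, 3.41 and 3.16 in GDX and 2.704, 3.105, 2.88, 3.098 and 2.92 in intact males. Its order was a different one, with GDX male 2 highest and GDX male 6 lowest of the castrated rats, so vessel and meningeal levels did not rank the rats alike.

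**Figure D4:**
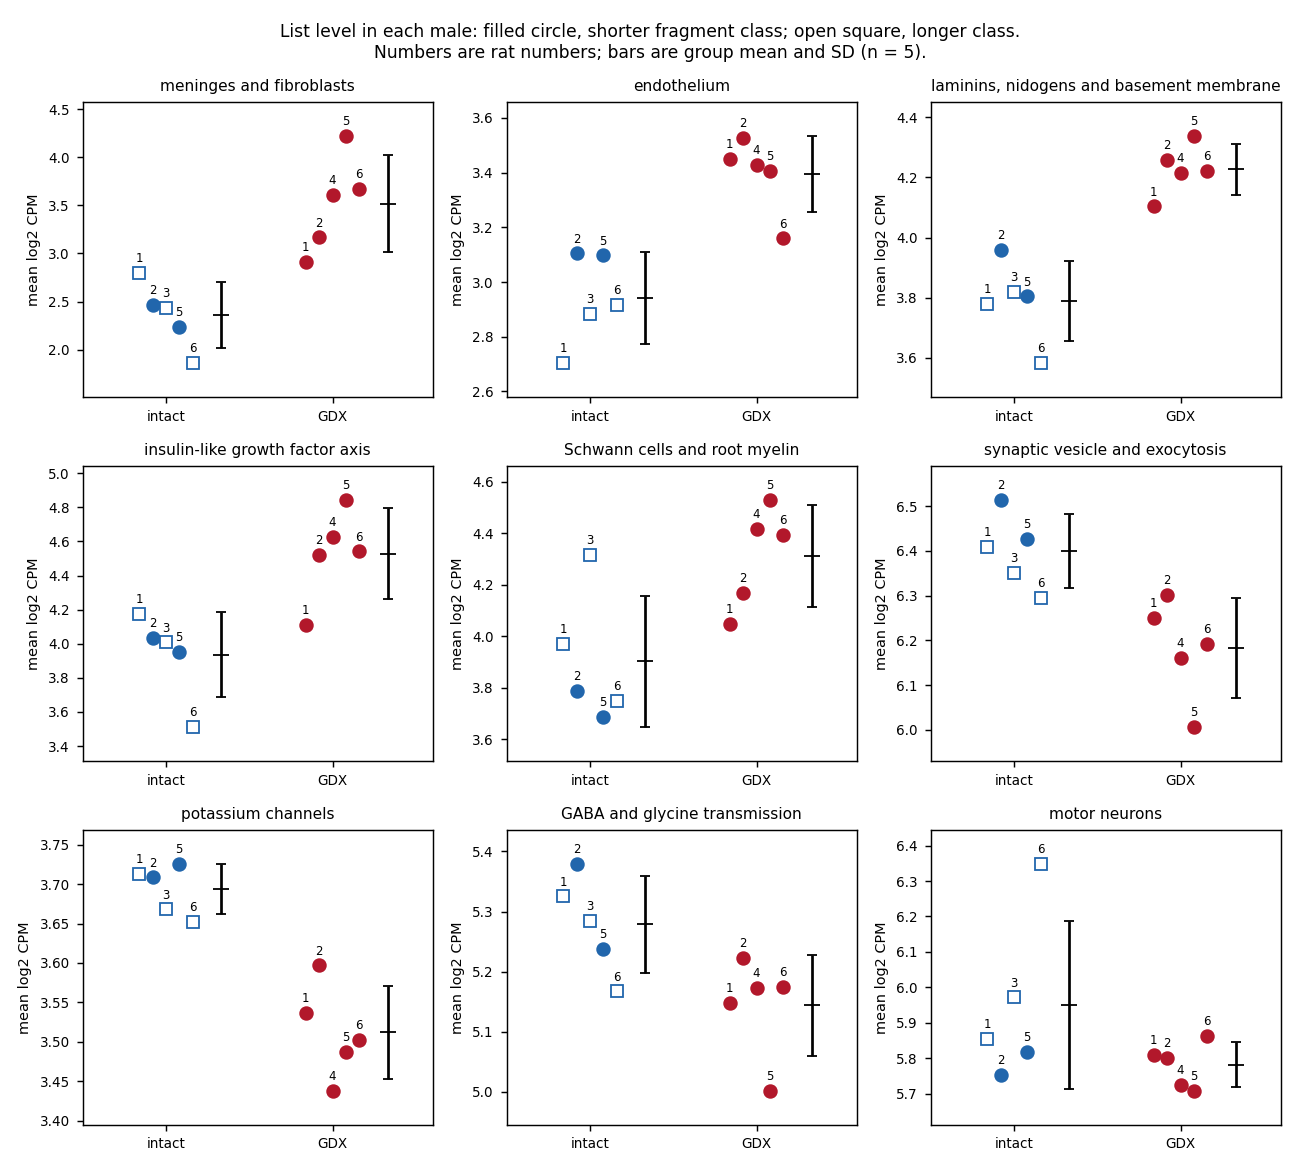
Mean log2 CPM over the tested genes of 9 lists (vertical axes differ) in each of the 5 intact and 5 GDX males, filled circles for the shorter and open squares for the longer fragment class, with rat numbers, group mean and SD. In meninges and fibroblasts GDX males run from 2.91 to 4.22 above intact males at 1.86 to 2.798.

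The response to castration was set against that to ovariectomy, measured in 6 OVX and 6 intact females that share no rat with the males. All OVX libraries are in the shorter fragment class, as are 2 of the intact female ones, so the confounding is alike in both sexes. Among 14910 genes tested in females 5 were called (0.0335%). Of the 1985 genes called in males that were tested in both sexes, 1608 had the same direction in females (81%), against 62.2% of all 14716 genes tested in both. Whether the class adds to this agreement was not tested. A call in males alone does not show a difference, so the difference itself was tested, and 18 of 15562 genes differed between the responses (0.116%), 14 with the higher log2 fold change in males and 4 with the lower. Pkp4, a plakophilin of cell junctions, had the smallest p, with a difference of 0.36 ± 0.056 in log2 (adjusted p = 0.0179), 0.32 in males and -0.039 ± 0.04 in females. Slc26a7 and Olfml2a differed by 3.15 ± 0.58 and 0.81 ± 0.16, and Slc6a20, Lama1, Ahnak, Cd44 and Gzmm were also among the 18. Rgma, a guidance molecule, differed by 0.55 ± 0.10, and the neuronal Scrt1 and Lamp5, lower in GDX males, by -0.53 ± 0.11 and -0.38 ± 0.081. The count of 18 was unstable. It was 6 with the class term, all among the 18, and 5 within the shorter class, none among the 18. The count was 243 in DESeq2 and 0 with the rat number within sex as a block. Leaving out single rats moved it between 1, without GDX male 5, and 275, without GDX male 1.

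Many list medians lay nearer 0 in females, and some lay farther from it. The meninges and fibroblast list had 0.22 in females against 1.19 in males, with 1 member, Slc6a20, called for the difference. Synaptic vesicle genes had -0.028 against -0.24, and insulin-like growth factor genes 0.078 against 0.64. The endothelial medians were closer, 0.44 and 0.49. Motor neuron genes had -0.27 in females against -0.21 in males, interferon-stimulated genes 0.33 against 0.097, and skeletal muscle genes 0.77 against -0.25. Leaving out 1 male moved the male medians of the last pair between 0.0088 and 0.23 and between -0.40 and 0.27, the latter across 0. These differences between list medians were not tested.

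**Figure D5:**
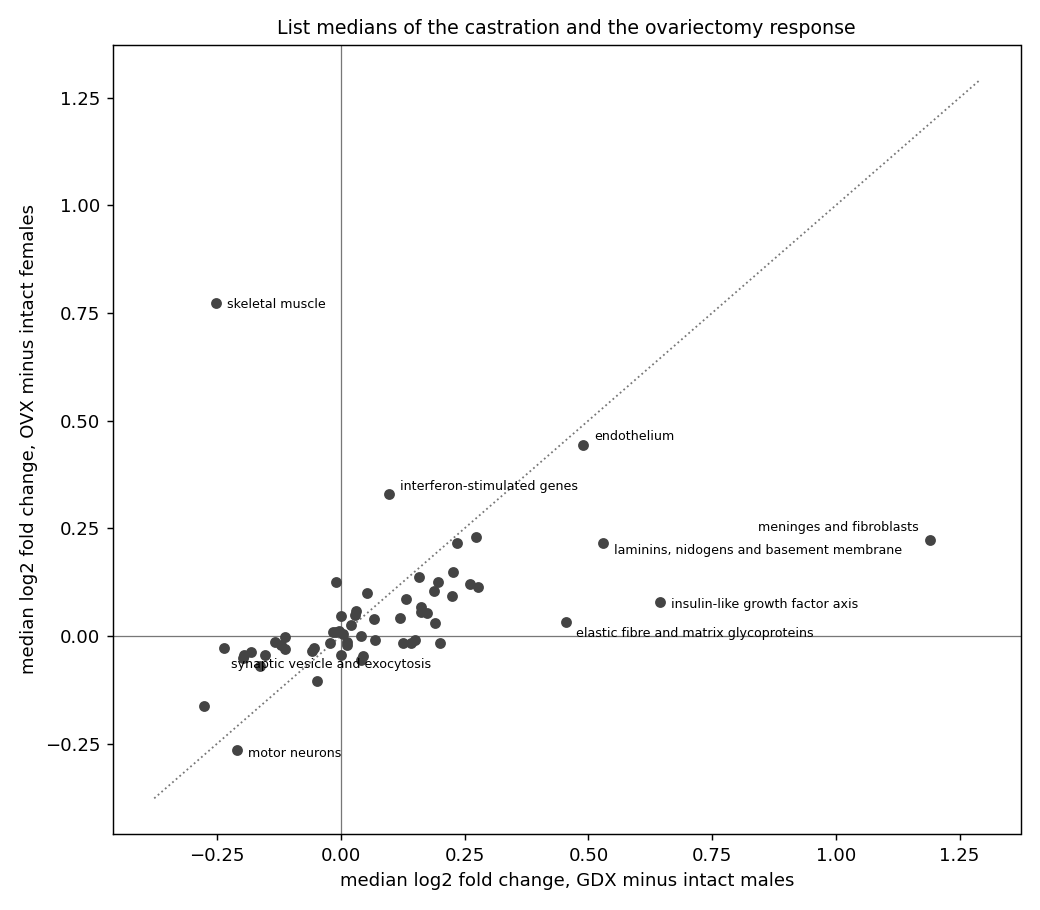
Median log2 fold change of each list with at least 10 members tested, GDX minus intact males (horizontal) and OVX minus intact females (vertical), with a dotted line of equal values. Meninges and fibroblasts stand at 1.19 in males and 0.22 in females, endothelium at 0.49 and 0.44.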

How the data were processed

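The values used are the deposited counts of reads per gene, raw and not normalized by the authors, who per the submitters' processing notes checked reads with FastQC, mapped them with TopHat2 2.0.13 to Rnor_6.0 and counted them with Subread. The sources disagree on the mapper, since the study's methods name Hisat2. The strand and multi-mapping settings are not given in the sources used here. Reads carry no molecular identifiers and are not independent molecules. The table holds 32883 genes. Groups were compared in edgeR 4.0.16 under R 4.3.3, after filterByExpr and TMM scaling, by its quasi-likelihood test (glmQLFTest), with p adjusted by Benjamini-Hochberg over all genes tested and called under 0.1. List levels are log2 CPM with a prior count of 2.

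Alternatives were RLE factors, DESeq2 1.42.0, testing without the low-count filter, library class or RNA integrity number as a term, shorter class only, rat number as a block, all 22 rats in 1 fit, and each rat left out. The pipeline was tested on simulated data. Members and lists were chosen with earlier results of these data known, so lists are given by counts and medians without tests. The 64 lists matched 2103 genes, 1749 of them tested. Genes named are in each direction the 10 of smallest adjusted p and the 5 largest fold changes among called genes whose groups do not overlap and whose higher group has at least 1 CPM, up to 3 called members per list, and steroid and cell type landmarks. Markers and genes called in the comparison of the sexes are named beside these. Some of the genes chosen in these ways are not reported here. Promoters are from RefSeq, build GRCr8, matched by symbol for 10411 of the genes tested.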

Additional observations from a re-analysis of the deposited data

Results flagged for a closer look

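Among 212 groups of 5 values, 9 had 1 rat so far off that its gap to the nearest rat, divided by the range of the group, exceeded Dixon's 95% value of 0.71. Chance finds about 1 in 20 such groups, against 9 of 212 here. In the list of skeletal muscle GDX male 4 was highest (0.73) and intact male 2 was highest of its group (0.829). GDX male 1 was lowest in heat shock and chaperone genes (0.747), intact male 3 highest in cytosolic ribosomal proteins (0.831) and intact male 6 lowest in clock genes (0.778). Among single genes, Cdh5 was highest in GDX male 5 (0.756), Apcdd1 lowest in GDX male 4 (0.711), Glra1 lowest in intact male 3 (0.756) and Rlim highest in intact male 6 (0.721).

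The 18 genes whose response to castration differed from that to ovariectomy in edgeR's test are given by that difference in log2 fold change. It was positive in Slc26a7 (3.15), Gzmm (2.35), Slc6a20 (1.90), Cubn (1.66), Sult1a1 (1.36), Ahnak (0.90), Olfml2a (0.81), Lama1 (0.76), Rgma (0.55), Dbp (0.54), Cd44 (0.51), Hopx (0.39), Plekhb1 (0.37) and Pkp4 (0.36). It was negative in Scrt1 (-0.53), Lamp5 (-0.38), Slco3a1 (-0.31) and Adar (-0.28). Slco3a1 was not called in either sex alone (adjusted p = 0.22 in males and 0.115 in females).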

How the results depend on the processing

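Against 1012 genes called higher and 983 lower, the library class as a term gave 336 and 460 and the shorter class only 197 and 243. The RNA integrity number as a term gave 600 and 662. Of the 1995 genes called, 665 were also called with the class term, 374 in the shorter class, 1182 with the integrity number and 1891 in DESeq2, and none turned its direction in any alternative. Leaving out 1 rat gave 593 to 1173 higher and 609 to 1273 lower. Fewer rats or an added term can lower these counts by construction, but without GDX male 1 they rose to 1173 and 1273. The cause of these moves was otherwise not tested. DESeq2, RLE factors, no filter and all 22 rats in 1 fit kept both counts within 1.5 times.

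Rats of equal number in the 2 groups were not paired. Their profiles, centred within group, correlated at -0.0904, 0.00941, -0.00887 and -0.0286 for rats 1, 2, 5 and 6. With the rat number as a replicate block over these 8 rats, 623 genes were higher and 657 lower. The same 8 rats without the block, an alternative chosen after seeing the data, gave 740 and 710.

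The count of 18 genes that differed between the sexes was 33 without a filter, 6 with the class term, 5 in the shorter class (none of the 18), 243 in DESeq2 and 1 to 275 with 1 rat left out. With the rat number within sex as a block edgeR called 0, with 1589 at an unadjusted p under 0.05. The cause was not tested.

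Lists with more members higher numbered 43, 29 with the class term, 25 in the shorter class and 34 to 40 with 1 rat left out, and those with more lower 16, 24 with the class term and 15 to 20 with 1 rat left out. At totals of 13008232 to 16955037 counts, genes under 1 CPM had few counts, of which 3.46% were called higher and 1.15% lower.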
